A study of Mus musculus with 6 samples.

Results

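The genes described here are 42 genes of S phase and DNA replication in a comparison of PME-1 knockout (KO) with wild-type (WT) mouse fibroblasts. They were chosen by gene symbol for their known roles, with earlier results of these data known. All 42 symbols were found among the 53762 genes of the count tables, and all 42 were tested among 15223 genes that passed the filter on low counts. The sequenced RNA came from MEFs, embryo-derived mouse fibroblasts, which here had been immortalized and so keep dividing in culture. The tested cells carry a knockout of PME-1, the product of Ppme1, the methylesterase that acts on the phosphatase PP2A by demethylating its catalytic subunit. Both groups had 3 libraries, and both were grown in high-glucose DMEM with serum and collected 24 hours after seeding. The labels give neither the way the knockout was made nor the number of clones or embryos behind each group. Nothing in them says that replicates came from separate cultures, so the spread behind every p-value may be technical.

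DNA replication is prepared in G1, when the origin recognition complex, Cdc6 and Cdt1 load the MCM2-7 helicase onto origins, a step called licensing. At the start of S phase the loaded helicase is activated by Cdc45, the GINS complex and Mcm10. Primase and DNA polymerases then copy the strands, held by the PCNA clamp. Most of these genes are transcribed in a wave at the G1/S border by E2F factors, which the retinoblastoma protein family holds back until cyclin kinases phosphorylate it. Their RNA is therefore more abundant in dividing than in resting fibroblasts. In bulk RNA a smaller share of cells in S phase and less RNA per cell cannot be told apart.

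The promoters of these genes are known for E2F sites, and 4 that hold a match are shown because they hold the element for which G1/S promoters are known. They are the 200 bases before the transcription start, from RefSeq on GRCm38.p6, in the direction of transcription, with capitals for any of 4 spellings of the E2F element (TTTCCCGC, TTTCGCGC, TTTGCCGC or TTTGGCGC, on either strand, overlapping matches included).
Mcm5 (chr8:75109309-75109508, plus strand): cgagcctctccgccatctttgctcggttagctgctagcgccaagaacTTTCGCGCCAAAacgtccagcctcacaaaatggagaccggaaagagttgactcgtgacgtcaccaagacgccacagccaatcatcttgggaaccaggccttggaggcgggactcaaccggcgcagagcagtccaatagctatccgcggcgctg
Mcm6 (chr1:128359706-128359905, minus strand): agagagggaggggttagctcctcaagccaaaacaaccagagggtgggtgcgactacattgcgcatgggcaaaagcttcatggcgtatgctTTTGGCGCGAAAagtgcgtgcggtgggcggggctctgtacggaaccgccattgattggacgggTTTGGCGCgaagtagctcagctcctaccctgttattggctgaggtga
Cdc6 (chr11:98907951-98908150, plus strand): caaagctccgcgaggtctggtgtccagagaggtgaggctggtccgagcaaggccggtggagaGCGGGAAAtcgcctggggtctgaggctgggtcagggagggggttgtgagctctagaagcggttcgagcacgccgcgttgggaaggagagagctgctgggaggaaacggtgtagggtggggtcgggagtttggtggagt
Gins3 (chr8:95633359-95633558, plus strand): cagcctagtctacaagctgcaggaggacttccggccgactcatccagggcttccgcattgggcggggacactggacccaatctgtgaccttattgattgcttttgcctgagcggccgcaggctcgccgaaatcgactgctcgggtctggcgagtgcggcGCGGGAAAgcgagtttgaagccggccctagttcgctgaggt
The pair of matches in Mcm5 and the upstream pair in Mcm6 overlap on opposite strands. In Cdc6 the match begins at position -138 from the start and in Gins3 at position -41. RefSeq windows of 300 bases, from 250 before to 50 after the start, were found for 32 of the 42 members, and 13 of them (40.6%) held an E2F spelling in at least 1 window. Among all 27025 genes with a window the share was 2.6%. The CHR element (TTTGAA on either strand), known from promoters of mitotic genes, was found in 4 of the 32 members (12.5%) and in 20.2% of all genes. For 40 G2 and mitosis genes, 34 with a window, the shares ran the other way, with E2F spellings in 1 (2.94%) and CHR in 25 (73.5%). A match is a description of letters, not of binding.

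**Figure D1:**
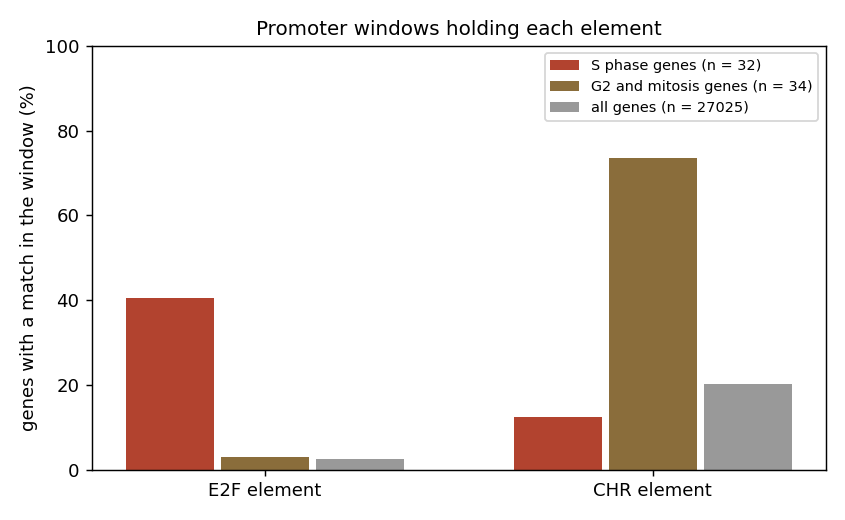
Share of genes (%) with at least 1 match to the E2F or the CHR element in a promoter window, for S phase genes, G2 and mitosis genes and all genes with a window. E2F spellings were in 40.6% of S phase genes against 2.6% of all genes, and CHR in 73.5% of the mitosis genes.

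The libraries were deep for these genes, and levels are given as CPM, counts scaled to library size, which do not correct for gene length. Total counts ran from 34450993 to 44116310 per library, and the lowest member count in any library was 511 and the highest 19021. Ppme1, the targeted gene, was at 18.2, 14.9 and 18.9 CPM in KO libraries 1 to 3, against 78.4, 80.7 and 86.6 CPM in WT libraries 1 to 3 (log2 fold change -2.24, SE 0.13, 95% interval -2.55 to -1.93, adjusted p = 0.000563), lower in every KO library. Xist, the RNA of the inactive X chromosome, had 4 to 12 counts in KO libraries and 16003 to 18859 in WT libraries, while the Y-linked Ddx3y had 1988 to 3061 counts in KO libraries and 0 in WT libraries, so sex and genotype cannot be told apart. Fibroblast markers, 9 in all, summed to 13904 to 16237 CPM in KO and 16916 to 23117 CPM in WT, with Col1a1, Pdgfrb and S100a4 called lower in KO. Of the 9 markers, 7 had lower and 2 had higher estimates in KO (log2 fold changes from -1.53 to 1.49), and DESeq2 called 1 higher. Endothelial markers summed to at most 0.258 CPM and blood cell markers to at most 4.94 CPM in any library. The 6 epithelial markers summed to 33.0, 65.8 and 67.9 CPM in KO libraries 1 to 3 and to 29.9, 9.38 and 6.93 CPM in WT libraries 1 to 3, mostly Krt19, with Krt5 and Krt14 at 0. Their part in the results was not tested. KO 1 and WT 1 stood apart. The chi-square per degree of freedom, over genes above a minimum summed count in the pair compared, was 13.14 between KO 2 and KO 3 and 12.73 between WT 2 and WT 3. It was 118 to 199.3 for pairs with KO 1 and 82.3 to 199.3 for pairs with WT 1, which lay nearer to KO 2 (90.09) and KO 3 (82.3) than to WT 2 (128) and WT 3 (115.2). KO 1 lay nearer to WT 2 (120.6) and WT 3 (129.3) than to KO 2 (136.8), but nearest to KO 3 (118). Between KO 2 or KO 3 and WT 2 or WT 3 it was 181.5 to 200.5. No pair was identical, and Ppme1 and the sex-linked genes followed the labels in all 6.

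The estimated difference between KO and WT was at most 1.39-fold for each of the 42 genes. None of the 42 passed the test of KO against WT (edgeR quasi-likelihood test, Benjamini-Hochberg adjusted p under 0.05), where 7.40% of all tested genes did, 3.55% higher and 3.86% lower in KO. At an unadjusted p under 0.05 there were 8 members, 1 higher and 7 lower in KO, or 19.0% of the list, against 22.2% of all genes. DESeq2 called 3 members, all lower (Chaf1b, Uhrf1 and Pold1), against 15.8% of all genes, and limma-voom called 0, against 7.74%. The log2 fold changes, KO over WT, lay between -0.47 (Chaf1b) and 0.30 (Fen1), with 14 above and 28 below 0. Their median was -0.08, against 0.01 over all tested genes, and -0.14 without WT 1.

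The data limit how far these genes can have shifted. The 95% interval of the log2 fold change lay inside a 2-fold change either way for 41 of the 42 members, against 56.9% of all tested genes, and inside a 1.5-fold change for 31 (28.5% of all genes). This is not particular to the list, since 39 of the 40 G2 and mitosis genes (97.5%) lay inside 2-fold and 22 inside 1.5-fold. The median level was 91.6 CPM for the members and 23.0 CPM for all tested genes. A rise of 2-fold lay outside the interval for all 42 members and a fall of 2-fold for 41. The exception was Rrm2, with a lower limit of -1.02. The highest upper limit was 0.85, for Exo1, which is a 1.81-fold rise. Half-widths of the intervals ran from 0.21 to 0.63 on the log2 scale, with a median of 0.29. A rise of 1.5-fold lay outside the interval for 40 members and a fall of 1.5-fold for 33. Each interval stands for its own gene and is not adjusted for the number of genes. To be called with its own spread, a member had to differ by 1.30-fold (Tyms) to 2.22-fold (Rrm2), with a median of 1.45-fold against 1.94-fold for all genes, so smaller changes would not have been called by edgeR with these libraries.

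**Figure D2:**
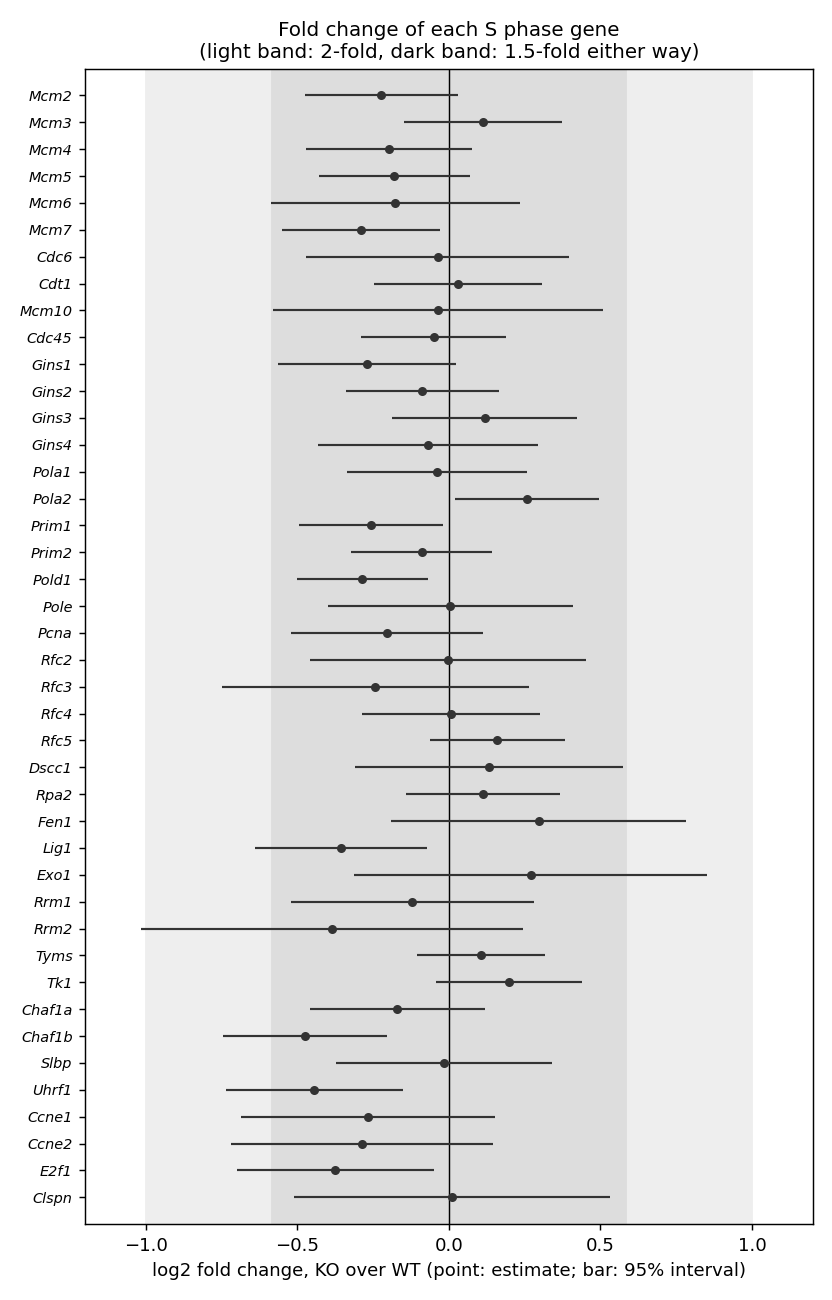
Log2 fold change (KO over WT, horizontal axis) of each of the 42 S phase genes, with points for estimates and bars for 95% intervals from edgeR (3 libraries per group). All bars but that of Rrm2 stay inside the light 2-fold band, and 31 stay inside the dark 1.5-fold band.

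Genes that license origins were expressed at high levels and differed little. Of the 6 subunits of the MCM helicase 5 had lower KO means and Mcm3 a higher one, and none was called. Mcm7 was at 349, 329 and 338 CPM in KO libraries 1 to 3, against 376, 439 and 428 CPM in WT libraries 1 to 3 (log2 fold change -0.29, SE 0.11, 95% interval -0.55 to -0.03, adjusted p = 0.181). Mcm2 stood at 346, 349 and 335 CPM in KO libraries 1 to 3, against 367, 419 and 416 CPM in WT libraries 1 to 3 (log2 fold change -0.22, SE 0.11, 95% interval -0.48 to 0.03, adjusted p = 0.279). All 3 KO libraries lay below all 3 WT libraries for both, with WT 1 nearest to KO. For Mcm4 the levels were 264, 314 and 305 CPM in KO libraries 1 to 3, against 322, 333 and 357 CPM in WT libraries 1 to 3 (log2 fold change -0.20, SE 0.12, 95% interval -0.47 to 0.08, adjusted p = 0.378), again without overlap. Mcm5 was likewise lower in every KO library, at 287 ± 20.8 CPM in KO and 325 ± 8.77 CPM in WT (SD, n = 3 each), with a log2 fold change of -0.18 (SE 0.11, adjusted p = 0.380). Mcm6 was at 336, 283 and 269 CPM in KO libraries 1 to 3, against 263, 379.6 and 360.4 CPM in WT libraries 1 to 3 (log2 fold change -0.18, SE 0.17, 95% interval -0.59 to 0.23, adjusted p = 0.612). In Mcm6 the groups overlapped, since KO 1 was the highest KO library and WT 1 the lowest of all 6. Mcm3 stood at 252, 299 and 292 CPM in KO libraries 1 to 3, against 259, 265 and 256 CPM in WT libraries 1 to 3 (log2 fold change 0.11, SE 0.11, 95% interval -0.15 to 0.37, adjusted p = 0.615), with KO 2 and KO 3 above the other 4 libraries. The loaders Cdc6 and Cdt1 had log2 fold changes of -0.04 (SE 0.18, adjusted p = 0.934) and 0.03 (SE 0.12, adjusted p = 0.912). Cdt1 averaged 97.5 ± 6.73 CPM in KO and 95.4 ± 9.99 CPM in WT (SD, n = 3 each). Cdc6 was lowest in KO 1, at 38.1 CPM, and between 46.8 and 58.1 CPM elsewhere.

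Of the 6 genes that turn the loaded helicase on, 5 had lower estimates in KO and 1 a higher one, and none was called. Gins1, a subunit of GINS, was at 28.9, 24.9 and 23.7 CPM in KO libraries 1 to 3, against 30.7, 30.5 and 32.3 CPM in WT libraries 1 to 3 (log2 fold change -0.27, SE 0.12, 95% interval -0.56 to 0.02, adjusted p = 0.262). It was lower in each KO library than in any WT library. Its partner Gins3 was higher, at 16.0 ± 0.139 CPM in KO and 14.7 ± 0.740 CPM in WT (SD, n = 3 each), also without overlap, with a log2 fold change of 0.12 (SE 0.13, adjusted p = 0.657). Gins2 stood at 84.8, 78.9 and 75.8 CPM in KO libraries 1 to 3, against 77.8, 92.0 and 84.8 CPM in WT libraries 1 to 3 (log2 fold change -0.09, SE 0.11, 95% interval -0.34 to 0.17, adjusted p = 0.692), and Gins4 at 64.3, 49.1 and 49.5 CPM in KO libraries 1 to 3, against 50.0, 63.2 and 57.5 CPM in WT libraries 1 to 3 (log2 fold change -0.07, SE 0.15, 95% interval -0.43 to 0.30, adjusted p = 0.850). Both overlapped, with KO 1 as high as WT 2 or WT 3 and WT 1 close to KO 2 and KO 3. The exons of Gins2 share 67.3% of their bases with Gse1 on the opposite strand, and the strand setting of the counting is not given in the sources used here, so its counts are uncertain. Cdc45 averaged 64.7 ± 4.86 CPM in KO and 67.0 ± 1.80 CPM in WT (SD, n = 3 each) and differed by -0.05 (SE 0.10, adjusted p = 0.830). Mcm10, which binds the active helicase, was at 53.9, 82.9 and 88.3 CPM in KO libraries 1 to 3, against 95.3, 70.6 and 64.9 CPM in WT libraries 1 to 3 (log2 fold change -0.04, SE 0.23, 95% interval -0.58 to 0.51, adjusted p = 0.949). The lowest value was in KO 1 and the highest in WT 1, while KO 2 and KO 3 lay above WT 2 and WT 3.

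Polymerase genes held small opposite differences. Pold1, the catalytic subunit of polymerase delta, was at 91.4, 96.6 and 98.6 CPM in KO libraries 1 to 3, against 116, 113 and 119 CPM in WT libraries 1 to 3 (log2 fold change -0.29, SE 0.09, 95% interval -0.50 to -0.07, adjusted p = 0.121). The groups were apart by more than their spread, DESeq2 called it lower (adjusted p = 0.0153), and edgeR and limma-voom did not. Prim1, the catalytic primase subunit, was at 75.8, 67.5 and 66.6 CPM in KO libraries 1 to 3, against 80.7, 82.8 and 87.4 CPM in WT libraries 1 to 3 (log2 fold change -0.26, SE 0.10, 95% interval -0.50 to -0.02, adjusted p = 0.191), with all KO libraries lower. Pola2, the accessory subunit of polymerase alpha, stood at 91.5, 97.7 and 103 CPM in KO libraries 1 to 3, against 87.0, 79.4 and 77.6 CPM in WT libraries 1 to 3 (log2 fold change 0.26, SE 0.10, 95% interval 0.02 to 0.50, adjusted p = 0.194). It was the only member with an unadjusted p under 0.05 that was higher in KO. Pola1, Prim2 and Pole, the other subunits listed, had log2 fold changes of -0.04 (SE 0.13, adjusted p = 0.894), -0.09 (SE 0.10, adjusted p = 0.657) and 0.00 (SE 0.17, adjusted p = 0.993). Prim2, the regulatory primase subunit, averaged 48.1 ± 1.82 CPM in KO and 51.2 ± 2.11 CPM in WT, with all KO libraries lower, and Pole, the catalytic subunit of polymerase epsilon, averaged 94.0 ± 15.5 CPM in KO and 93.8 ± 14.8 CPM in WT (SD, n = 3 each). Pola1 lies on the X chromosome, and its level was 93.3 ± 9.12 CPM in KO and 95.9 ± 10.0 CPM in WT (SD, n = 3 each).

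**Figure D3:**
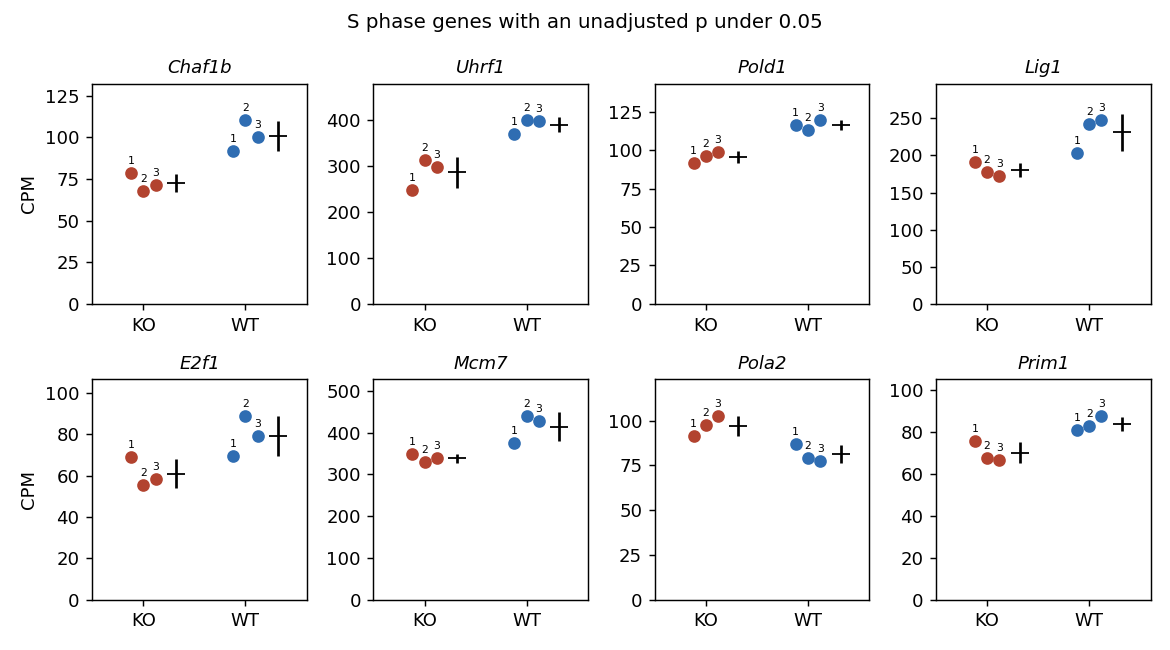
Levels (CPM, axes from 0) of the 8 S phase genes with an unadjusted p under 0.05, with 1 point per library numbered as in the labels and the mean ± SD of 3 libraries beside them. Pola2 is higher in every KO library than in any WT library and the other 7 are lower, and none passes the adjusted threshold.

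The clamp and most of its loaders overlapped between the groups. Pcna, the sliding clamp, was at 359, 304 and 302 CPM in KO libraries 1 to 3, against 325, 383 and 404 CPM in WT libraries 1 to 3 (log2 fold change -0.20, SE 0.13, 95% interval -0.52 to 0.11, adjusted p = 0.431). Rfc2, a subunit of the clamp loader, stood at 132, 93.8 and 98.7 CPM in KO libraries 1 to 3, against 85.8, 125 and 114 CPM in WT libraries 1 to 3 (log2 fold change -0.00, SE 0.19, 95% interval -0.46 to 0.45, adjusted p = 0.995). For Rfc3, its partner in the loader, the levels were 63.6, 48.5 and 52.7 CPM in KO libraries 1 to 3, against 46.0, 74.5 and 74.3 CPM in WT libraries 1 to 3 (log2 fold change -0.24, SE 0.21, 95% interval -0.75 to 0.26, adjusted p = 0.569). Within WT both loader genes were lowest in WT 1, and within KO both were highest in KO 1, so the groups overlapped. Rfc5 was at 78.2, 83.1 and 82.3 CPM in KO libraries 1 to 3, against 70.0, 71.0 and 77.0 CPM in WT libraries 1 to 3 (log2 fold change 0.16, SE 0.09, 95% interval -0.06 to 0.38, adjusted p = 0.380), without overlap and higher in KO. Rfc4, a further subunit, and Dscc1, which belongs to an alternative loader that acts in sister chromatid cohesion, differed by 0.01 (SE 0.12, adjusted p = 0.983) and 0.13 (SE 0.19, adjusted p = 0.740). Dscc1 was among the least abundant members, at 18.2 ± 3.36 CPM in KO and 16.6 ± 2.11 CPM in WT (SD, n = 3 each).

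Enzymes that finish the lagging strand pointed in opposite directions. Lig1, the ligase that seals Okazaki fragments, was at 191, 178 and 172 CPM in KO libraries 1 to 3, against 203, 243 and 247 CPM in WT libraries 1 to 3 (log2 fold change -0.36, SE 0.12, 95% interval -0.64 to -0.07, adjusted p = 0.135), lower in each KO library. Fen1, the nuclease that cuts the flap before ligation, stood at 83.9, 129 and 129.8 CPM in KO libraries 1 to 3, against 111, 84.3 and 84.5 CPM in WT libraries 1 to 3 (log2 fold change 0.30, SE 0.20, 95% interval -0.19 to 0.78, adjusted p = 0.459). Exo1, a nuclease of repair and replication, was at 29.5, 52.5 and 51.7 CPM in KO libraries 1 to 3, against 43.8, 34.0 and 33.1 CPM in WT libraries 1 to 3 (log2 fold change 0.27, SE 0.24, 95% interval -0.31 to 0.85, adjusted p = 0.583). For Fen1 and Exo1 the libraries KO 2 and KO 3 were the highest and KO 1 the lowest of all 6, with WT 1 between. Rpa2, a subunit of the protein that coats unwound DNA, averaged 63.6 ± 1.76 CPM in KO and 58.9 ± 5.34 CPM in WT (SD, n = 3 each) and differed by 0.11 (SE 0.11, adjusted p = 0.607). Fen1 shares 78.8% of its exon bases with the antisense transcript Gm10143, which held at most 43 counts in any library.

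Nucleotide supply genes included the least certain member. Rrm2, the S phase subunit of ribonucleotide reductase, was at 121, 211 and 212 CPM in KO libraries 1 to 3, against 303, 203 and 205 CPM in WT libraries 1 to 3 (log2 fold change -0.39, SE 0.26, 95% interval -1.02 to 0.24, adjusted p = 0.455). KO 1 was the lowest and WT 1 the highest, and the other 4 libraries lay within 203 to 212 CPM. Tk1, the cytosolic thymidine kinase, stood at 121, 119.8 and 121 CPM in KO libraries 1 to 3, against 114, 106 and 96.0 CPM in WT libraries 1 to 3 (log2 fold change 0.20, SE 0.10, 95% interval -0.04 to 0.44, adjusted p = 0.317), with the 3 KO libraries close together and above WT. Tyms, thymidylate synthase, was at 101 ± 2.99 CPM in KO and 94.0 ± 2.40 CPM in WT (SD, n = 3 each), also without overlap, with a log2 fold change of 0.11 (SE 0.09, adjusted p = 0.547). Rrm1, the large subunit of ribonucleotide reductase, lies 2.07 Mb from Ppme1 on chromosome 7 (chr7:102441695-102469771 in GENCODE M21 on GRCm38), differed by -0.12 (SE 0.17, adjusted p = 0.738). Its lowest level, 282 CPM, was in KO 1, and the other 5 libraries lay between 375 and 424 CPM.

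Genes that rebuild chromatin behind the fork included the lowest p-values of the list. Chaf1b, the middle subunit of the histone chaperone CAF-1, was at 78.7, 67.6 and 71.5 CPM in KO libraries 1 to 3, against 92.0, 110.2 and 100.3 CPM in WT libraries 1 to 3 (log2 fold change -0.47, SE 0.11, 95% interval -0.74 to -0.20, adjusted p = 0.0552). Uhrf1, which brings the maintenance methyltransferase to newly copied DNA, stood at 248, 312 and 298 CPM in KO libraries 1 to 3, against 370.1, 399 and 398 CPM in WT libraries 1 to 3 (log2 fold change -0.44, SE 0.12, 95% interval -0.74 to -0.15, adjusted p = 0.0851). Every KO library was below every WT library for both genes, which were 1.39-fold and 1.36-fold lower in KO. Both missed the threshold in edgeR and in limma-voom (adjusted p = 0.0563 and 0.0760) and passed it in DESeq2 (adjusted p = 0.00625 and 0.00796), and Chaf1b passed in edgeR without KO 1 (-0.54, adjusted p = 0.0451). Chaf1a, the large subunit of CAF-1, averaged 187 ± 23.6 CPM in KO and 210.1 ± 3.25 CPM in WT (SD, n = 3 each) and differed by -0.17 (SE 0.12, adjusted p = 0.476), and 52.5% of its exon bases overlap Ubxn6 on the other strand. Slbp, which binds the stem-loop of histone mRNAs, was at 139.6, 140.2 and 136 CPM in KO libraries 1 to 3, against 111, 153 and 157 CPM in WT libraries 1 to 3 (log2 fold change -0.02, SE 0.15, 95% interval -0.37 to 0.34, adjusted p = 0.966), with WT 1 the lowest library.

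None of the 4 members that control S phase entry or guard the fork was called. E2f1, itself a factor of the G1/S wave, was at 68.9, 55.7 and 58.4 CPM in KO libraries 1 to 3, against 69.5, 88.9 and 79.1 CPM in WT libraries 1 to 3 (log2 fold change -0.38, SE 0.14, 95% interval -0.70 to -0.05, adjusted p = 0.166). The groups did not overlap, although KO 1 and WT 1 were close. The cyclin E genes Ccne1 and Ccne2, activators of Cdk2, had log2 fold changes of -0.27 (SE 0.18, adjusted p = 0.433) and -0.29 (SE 0.18, adjusted p = 0.416), with their lowest levels in KO 1 and their highest in WT 1. Ccne2 averaged 47.7 ± 9.76 CPM in KO and 58.2 ± 7.51 CPM in WT (SD, n = 3 each). Clspn, an adaptor of the fork checkpoint, stood at 57.2, 90.9 and 93.6 CPM in KO libraries 1 to 3, against 94.7, 67.8 and 77.6 CPM in WT libraries 1 to 3 (log2 fold change 0.01, SE 0.22, 95% interval -0.51 to 0.53, adjusted p = 0.987), also lowest in KO 1 and highest in WT 1.

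**Figure D4:**
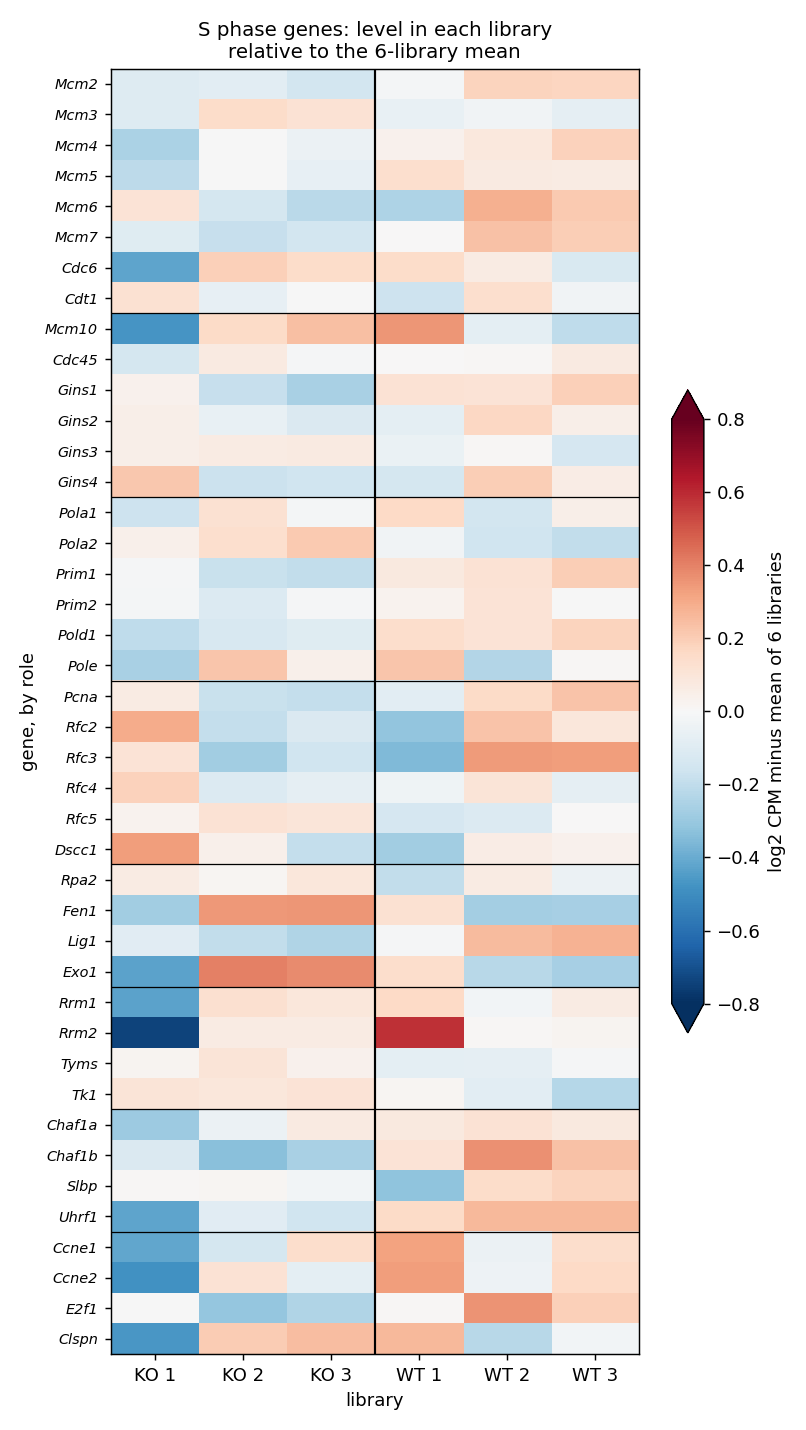
Level of each S phase gene in each library as log2 CPM minus the mean of the 6 libraries, genes ordered by role, KO libraries left of WT libraries. Rrm2 is lowest in KO 1 and highest in WT 1, Fen1 and Exo1 are high in KO 2 and KO 3, and Chaf1b and Uhrf1 are lower in all 3 KO libraries.

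Summed over the 42 genes, the level was 5249, 5679 and 5614 CPM in KO libraries 1 to 3, against 5934, 6192 and 6195 CPM in WT libraries 1 to 3. With TMM-scaled library sizes, all 3 KO sums lay below all 3 WT sums. The TMM factors, which rescale each library, were 1.09 for KO 1 and 0.945 for WT 1. Without them the groups overlapped. The 42 genes held 202904 of 35497802 counts in KO 1 and 213917 of 38155189 in WT 1, a smaller share. The median deviation of the members from the 6-library mean was -0.09, -0.00070 and -0.02 in KO libraries 1 to 3 and 0.01, 0.08 and 0.06 in WT libraries 1 to 3 (log2). The difference of the group means was -0.09, and the 9 differences between a KO and a WT library ran from -0.17 to -0.01. Over all tested genes the same difference was -0.00038. With library sizes alone as scaling the members' difference was -0.023, while the median log2 fold change of all genes moved to 0.08. For 13 members every KO library lay below every WT library (30.95%, against 15.4% of all tested genes), and for 5 every KO library lay above (11.9%, against 14.6%). The other 24 overlapped.

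Libraries of the same genotype also differed in these genes, with member medians spread over 0.09 within KO and 0.07 within WT (log2). The shares of variation within and between genotypes were not computed. KO 1 was the lowest of the 6 libraries for 18 members and the highest for 4. Its TMM factor, 1.09, was the largest of the 6 and lowers the CPM of every gene in that library. WT 2 was the highest for 11 and the lowest for 0. The difference between KO 1 and WT 1 and the difference between the means of KO 2 and KO 3 and of WT 2 and WT 3 had opposite signs for 20 of the 42 members. Both were negative for 16, among them Chaf1b, Uhrf1, Pold1, Lig1, E2f1, Mcm7 and Prim1, and both positive for 6, among them Pola2. Rrm2 differed by -1.33 between KO 1 and WT 1 and by 0.05 between the other libraries, Mcm10 by -0.82 and 0.34, and Exo1 by -0.57 and 0.63 (log2 CPM). Rfc3 showed the reverse, 0.47 and -0.56. The medians over the members were -0.08 for the libraries numbered 1 and -0.10 for the others. These counts of ranks and signs were not made over all tested genes, so whether they are particular to the members cannot be said. Over all tested genes the deviations of KO 1 and WT 1 from their group means correlated at -0.511.

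**Figure D5:**
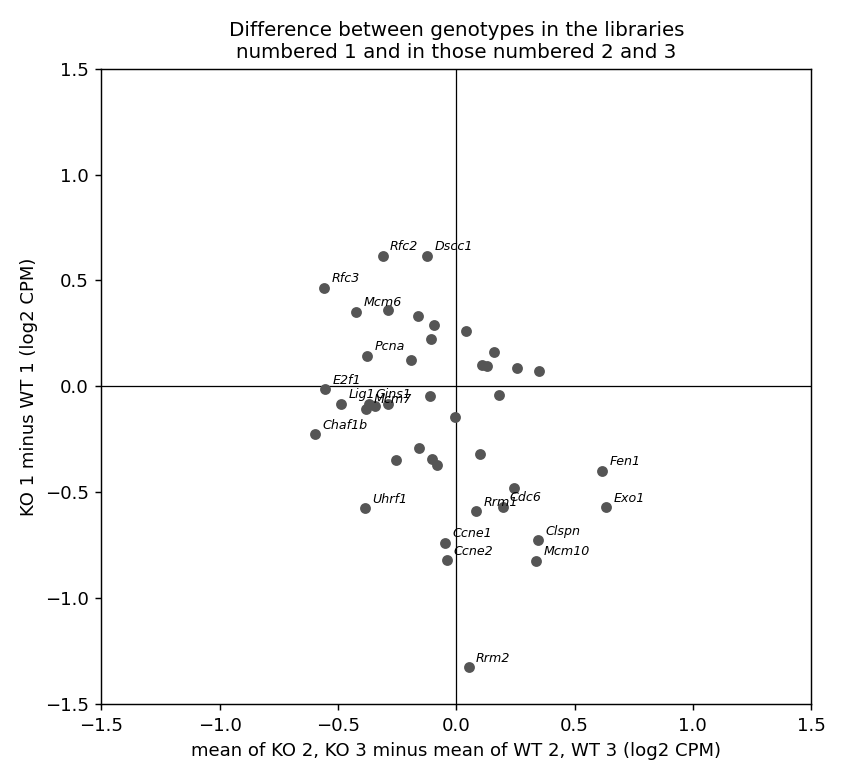
Difference between genotypes (log2 CPM) for each S phase gene in the libraries numbered 2 and 3 (horizontal axis) and in those numbered 1 (vertical axis). Of the 42 points 20 lie where the signs differ, with Rrm2, Mcm10, Clspn, Exo1 and Fen1 at lower right and Rfc2, Rfc3 and Dscc1 at upper left.

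Without KO 1 and WT 1, which leaves 2 libraries a group, 24 members were called, or 57.1% of the list, where 48.0% of all tested genes were called. Of these members 7 were higher, against 23.3% of all genes, and 17 lower, against 24.6%. Of the 24, 12 had the same sign in KO 1 against WT 1 and 12 the opposite sign, a count that was not made over all tested genes. Their log2 fold changes ran from -0.60 (Chaf1b) to 0.63 (Exo1), so no called member passed a 2-fold difference there either. Fen1 was at 0.62 (adjusted p = 6.69e-06), Rfc3 at -0.56 (adjusted p = 8.27e-05), Lig1 at -0.49 (adjusted p = 2.41e-05) and Uhrf1 at -0.39 (adjusted p = 9.74e-05), while Rrm2 was at 0.05 (adjusted p = 0.498). In this setting genotype cannot be told apart from any other difference of KO 2 and KO 3 from WT 2 and WT 3.

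The rest of the replication pathway was read from 7 further lists with 183 genes, of which 167 were tested and 6 passed (3.59%, against 7.40% of all genes), 2 higher and 4 lower in KO. When KO 2, KO 3, WT 2 or WT 3 was left out, 1 gene of these lists passed, and with DESeq2 16 did. Among 21 further polymerase, clamp loader and fork genes 2 fell (9.52%, against 3.86% of all genes lower and 7.40% either way). Tipin, which with Timeless steadies stalled forks, was at 83.1, 78.6 and 82.2 CPM in KO libraries 1 to 3, against 139, 158 and 157 CPM in WT libraries 1 to 3 (log2 fold change -0.90, SE 0.10, 95% interval -1.14 to -0.66, adjusted p = 0.00416). Rnaseh2a, the catalytic subunit of an enzyme that removes ribonucleotides from DNA, stood at 48.9, 35.9 and 37.0 CPM in KO libraries 1 to 3, against 64.2, 76.2 and 72.2 CPM in WT libraries 1 to 3 (log2 fold change -0.80, SE 0.15, 95% interval -1.17 to -0.44, adjusted p = 0.0271). In both, every KO library was below every WT library. Tipin lies at chr9:64281581-64305424 and the helicase gene Pif1, with a log2 fold change of -0.83 (SE 0.20, adjusted p = 0.0615), at chr9:65587160-65595967. No member of the 42 lies on chromosome 9. Other genes of these lists do, among them Atrip (chr9:109057933-109074124), called higher in KO, and Topbp1 (chr9:103305215-103350428), not called. Whether position plays a part was not tested.

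Among 20 E2F, pocket protein and CDK2 genes 1 rose and 1 fell, against 7.40% of all genes either way. Cdk2, the kinase that cyclin E activates, was at 85.4, 90.0 and 85.5 CPM in KO libraries 1 to 3, against 113, 114 and 115 CPM in WT libraries 1 to 3 (log2 fold change -0.39, SE 0.09, 95% interval -0.60 to -0.18, adjusted p = 0.0449), with a narrow spread in both groups. Cdkn1c, an inhibitor of cyclin-dependent kinases, stood at 23.0, 14.7 and 13.8 CPM in KO libraries 1 to 3, against 4.77, 7.42 and 8.61 CPM in WT libraries 1 to 3 (log2 fold change 1.31, SE 0.30, 95% interval 0.59 to 2.03, adjusted p = 0.0495), higher in each KO library. Both calls lie close to the threshold. The retinoblastoma gene Rb1 and E2f2 had log2 fold changes of 0.69 (SE 0.21, adjusted p = 0.112) and 0.69 (SE 0.26, adjusted p = 0.184). Among 23 fork checkpoint and repair genes 1 passed (4.35%, against 7.40%), Atrip, the partner of the Atr kinase, which rose, at 27.5, 26.7 and 30.0 CPM in KO libraries 1 to 3, against 20.1, 16.7 and 17.7 CPM in WT libraries 1 to 3 (log2 fold change 0.63, SE 0.13, 95% interval 0.32 to 0.94, adjusted p = 0.0352), and Blm, a helicase, was at -0.73 (SE 0.21, adjusted p = 0.0972) on the log2 fold scale.

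None of 17 further origin and firing genes, 19 nucleotide supply genes or 13 chromatin assembly genes passed (edgeR), and 3, 3 and 0 of them had an unadjusted p under 0.05, or 17.6%, 15.8% and 0%, against 22.2% of all genes. DESeq2 called 2, 2 and 0, where it called 15.8% of all genes, and limma-voom 0 in each. Dut, which keeps uracil out of DNA, differed by 0.41 (SE 0.12, adjusted p = 0.101), and Topbp1, which helps to activate the helicase, by -0.39 (SE 0.12, adjusted p = 0.107). The median log2 fold change of the 19 nucleotide supply genes was 0.25, with 17 above 0, but their library medians were -0.25, 0.27 and 0.20 in KO libraries 1 to 3 and 0.24, -0.28 and -0.27 in WT libraries 1 to 3, so KO 1 and WT 1 lay opposite to the others. Of 70 histone symbols taken by name (some linker histones among them are made outside S phase), 54 were tested and 1 fell (1.85%, against 3.86% of all genes), H2bc4, at 8.95, 9.45 and 10.3 CPM in KO libraries 1 to 3, against 16.0, 17.3 and 14.6 CPM in WT libraries 1 to 3 (log2 fold change -0.74, SE 0.15, 95% interval -1.10 to -0.38, adjusted p = 0.0335). Histone genes have near-identical copies, so their counts are uncertain, and the median interval half-width of 1.27 compares with 0.29 for the 42 members.

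G2 and mitosis genes are the nearest comparison, and 1 of 40 fell (2.5%, against 3.86% of all genes), Kif23 (chr9:61915905-61946774), at 130.3 ± 24.0 CPM in KO and 250.2 ± 25.9 CPM in WT (SD, n = 3 each; log2 fold change -0.94, SE 0.17, 95% interval -1.34 to -0.54, adjusted p = 0.0222). Their library medians were -0.26, 0.11 and 0.11 in KO libraries 1 to 3 and 0.12, -0.03 and -0.02 in WT libraries 1 to 3. They swung by 0.37 within KO, where the S phase medians swung by 0.09. Within single S phase role groups the KO swing ran from 0.07 (licensing) to 0.47 (G1/S control and checkpoint). In KO 1 the median was 0.15 for the clamp and its loaders and -0.44 for the control and checkpoint genes. The small swing therefore belongs to the median of the whole S phase list, not to each of its parts. KO 1 was the lowest library for both lists, and the difference of the group means was -0.04 for the mitosis genes and -0.09 for the S phase genes. Whether the lists differ was not tested.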

How the data were processed

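Raw read counts per gene symbol were deposited by the authors, 1 file for each of 6 libraries. Per the labels' protocols the kit keeps strand, and the submitters' processing notes name Trim Galore 0.6.6, HISAT2 2.2.1 and a build of the human genome, whereas the files hold mouse gene symbols. For the counting program, its strand setting and the annotation, the sources used here give nothing. Titles set the groups, since the genotype fields of KO 2 and KO 3 carry other numbers after PME.

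Counts were tested with edgeR 4.0.16 (filterByExpr, TMM factors, robust quasi-likelihood fit) in R 4.3.3, with Benjamini-Hochberg adjustment over 15223 genes. CPM values use TMM-scaled library sizes and log2 CPM a prior count of 2. The SE is the log2 fold change divided by the square root of F, and 95% intervals use the t quantile at the total degrees of freedom. The fold needed for a call uses the largest p among called genes. The members and lists were chosen with earlier results of these data known. Named genes are those with the lowest p or largest change in each role group, those with an unadjusted p under 0.05, those called under an alternative, and called genes of the other lists. Pif1, Rb1, E2f2, Blm, Dut, Topbp1 and Kif23 were added after their values were seen. The alternatives tried were other tests (DESeq2 1.42.0, limma-voom 3.58.1), other scalings and filters, a replicate block and leaving libraries out. Positions come from GENCODE M21 on GRCm38 and promoters from RefSeq.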

Additional observations from a re-analysis of the deposited data

How the results depend on the processing

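The count of called members stayed at 0 with median-ratio scaling, library sizes alone, no filter, a minimum mean of 5 CPM, limma-voom and the replicate block. It was 3 with DESeq2, 0 to 1 when 1 library was left out and 24 without KO 1 and WT 1. The genes called in all numbered 2406 with DESeq2, 332 to 1216 with 1 library left out (375 without KO 2, 359 without KO 3, 385 without WT 2, 332 without WT 3) and 7408 without KO 1 and WT 1. The median log2 fold change of the members was -0.0096 with library sizes alone, -0.041 with a minimum mean of 5 CPM and -0.139 (without WT 1) to -0.098 with 1 library left out, and the difference of library medians was -0.023 with library sizes alone and -0.053 with that minimum. The number of members inside 2-fold stayed between 40 and 42. The number inside 1.5-fold was 22 to 29 with 1 library left out, 35 without KO 1 and WT 1, 11 with the replicate block and 30 to 32 otherwise. In the other replication lists 16 genes passed with DESeq2, 1 to 6 with 1 library left out and 74 without KO 1 and WT 1. Mcm10 changed sign there, to 0.335 (adjusted p = 0.00271). Cdc6, Cdt1, Pola1, Rfc4, Dscc1, Rrm1 and Rrm2 also changed sign there and were not called with or without those libraries. The cause of these differences was not tested. Same-numbered libraries did not deviate together (correlations -0.511, -0.305 and -0.221 for numbers 1 to 3), and none correlated best with its own number. These values give no sign of pairing by number. Deviations within a group cancel out, so the correlations are not independent and cannot show how the libraries were prepared. With the replicate block 8 genes passed in all and 0 in the other replication lists.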
